A study of Mus musculus with 8 samples.

Results

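The Cdc25 phosphatases and the Wee1 family kinases are the opposed enzymes that set the inhibitory phosphorylation of cyclin-dependent kinases (CDKs). The group examined here holds 5 genes, Cdc25a, Cdc25b, Cdc25c, Wee1 and Pkmyt1, chosen by gene symbol out of 17093 features that could be tested on the array, of which 12031 carried a symbol. Each of the 5 genes was represented by 1 probe and 1 spot per array, and all 5 were tested. The samples were dermal fibroblasts of newborn C57BL/6 mice, digested out of skin, cultured and then transfected with control oligonucleotides (n = 4, samples 1, 3, 6 and 8) or with miR-127-3p mimic (n = 4, samples 2, 4, 5 and 7). Such a mimic of a microRNA is a synthetic RNA that acts as the mature microRNA once inside the cell. The oligonucleotide dose, the time of harvest and whether the samples came from separate cultures or animals are not given in the sources used here, so the p-values measure the spread between these 8 samples, which may be technical. For samples 3 and 6 the treatment field names both kinds of oligonucleotide, and their titles place them with the controls.

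Wee1 and Myt1 (the product of Pkmyt1) add phosphate to a tyrosine and a neighbouring threonine in the ATP-binding loop of CDK1 and related kinases and so hold them inactive. Cdc25 phosphatases remove these phosphates, which releases the kinase and lets the cell enter S phase or mitosis. Wee1 works in the nucleus and Myt1 at the membranes of the endoplasmic reticulum and Golgi. Cdc25A acts from the start of S phase through mitosis, while Cdc25B and Cdc25C act mainly at entry into mitosis. DNA damage checkpoints restrain the Cdc25 enzymes, and transcripts of several of these genes are known to be made mostly in dividing cells.

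The sequences that frame this comparison are the transfected microRNA and the start regions of the genes that responded. Mouse miR-127-3p lies at chr12:109592888-109592909 on the plus strand of GRCm38.p6, and its seed, bases 2 to 8, is in capitals.
miR-127-3p: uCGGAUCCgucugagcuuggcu
RefSeq promoter sequences were matched with entries on 1 chromosome left out, so members may have been missed. Sequence was found this way for 2 of the 5 members and for Cdk1, the kinase on which the 5 enzymes act. The 250 bases before each start are shown, 5′ to 3′ on the gene's strand (GRCm38.p6). Whether these windows bear on the fall of the genes was not tested. Cdc25a is at chr9:109875329-109875578 (plus), Cdc25b at chr2:131186698-131186947 (plus) and Cdk1 at chr10:69352913-69353162 (minus). Capitals mark 3 motifs known from promoters of cell cycle genes, searched on both strands. They are the CCAAT box (CCAAT, or ATTGG on the other strand), the CHR element (TTTGAA) and an E2F-like site, written as TTTCGCGC, TTTGGCGC, TTTCCCGC or TTTGCCGC.
Cdc25a: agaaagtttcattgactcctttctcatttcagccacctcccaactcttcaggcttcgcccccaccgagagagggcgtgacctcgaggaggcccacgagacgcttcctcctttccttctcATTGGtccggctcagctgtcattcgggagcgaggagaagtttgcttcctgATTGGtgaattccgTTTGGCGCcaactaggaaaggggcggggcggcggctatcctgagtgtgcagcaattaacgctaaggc
Cdc25b: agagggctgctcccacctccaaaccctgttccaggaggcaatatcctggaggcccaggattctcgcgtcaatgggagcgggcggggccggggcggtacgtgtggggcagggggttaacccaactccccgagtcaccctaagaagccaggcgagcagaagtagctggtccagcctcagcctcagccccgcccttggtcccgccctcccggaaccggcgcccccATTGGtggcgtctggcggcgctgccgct
Cdk1: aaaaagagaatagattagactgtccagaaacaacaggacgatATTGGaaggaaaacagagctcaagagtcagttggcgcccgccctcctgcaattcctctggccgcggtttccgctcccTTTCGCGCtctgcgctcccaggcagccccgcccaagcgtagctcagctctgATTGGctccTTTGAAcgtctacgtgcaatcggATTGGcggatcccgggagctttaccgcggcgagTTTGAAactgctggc
The Cdc25a window held 2 CCAAT boxes and 1 E2F-like site, and the Cdc25b window held 1 CCAAT box. The Cdk1 window held 3 CCAAT boxes, 2 CHR elements and 1 E2F-like site. No 2 of these matches overlapped. Over all 32851 RefSeq windows of this length, 33.8% held a CCAAT box, 16% a CHR element and 1.86% an E2F-like site. A match describes the letters and does not show that a factor binds there.

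All 5 genes were lower with the mimic, the activating phosphatases and the inhibiting kinases alike. The log2 fold changes ran from -0.72 for Cdc25a to -2.56 for Cdc25c, with a median of -1.78, against a median of 0.02 over all features. Each of the 5 passed the test (limma, Benjamini-Hochberg adjusted p under 0.05 over all features), where 34.2% of all features passed in either direction and 18.3% passed with lower values under the mimic. The arrays of the groups did not overlap for any of the 5, which held for 34.2% of all features (19.0% with lower values). The fall was at least 2-fold for 4 of the 5, and for 3.88% of all features. Array signal was set relative to each array's 75th percentile, so values below are log2 units above or below that level. A lower level in these bulk cultures cannot be assigned to fewer dividing cells or to less RNA per cell, which cannot be told apart.

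The whole array gave the frame for these values. The number of probes above background ran from 20886 to 22640 on control arrays and from 20767 to 23474 on mimic arrays. Of all features, 3134 were lower and 2717 higher with the mimic. Without any scaling between arrays these counts were 2485 and 1320. All 12 fibroblast markers were above background on all 8 arrays, 2 of them rose and 2 fell. Among macrophage and leukocyte genes 9 of the 10 tested rose and 0 fell. Their summed linear level was 36.5 to 45.7 times the 75th percentile in controls and 65.4 to 76.1 with the mimic. Itgam weighed most in this sum, with a mean log2 level of 4.93 in controls and 5.44 with the mimic. The next highest, Csf1r, had 2.30 and 3.34, so the sum does not describe these genes evenly. The pan-leukocyte gene Ptprc had no reading above background. Of 5 tested keratinocyte markers 2 rose, and of 3 endothelial and 6 melanocyte and Schwann markers 1 each rose. None of the tested skeletal muscle (4), adipocyte (4) or pericyte (3) markers passed. The part of these cell types in the results below was not tested.

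Cdc25a, the phosphatase that acts both in S phase and in mitosis, changed least. Its probe (for NM_007658) read 2.55, 2.52, 2.34 and 2.32 in controls 1, 3, 6 and 8. With the mimic it read 1.73, 1.60, 1.83 and 1.71 in samples 2, 4, 5 and 7. Every mimic array lay below every control array, with a gap of 0.50 between the groups. The means were 2.43 ± 0.12 (SD, n = 4) and 1.72 ± 0.09, a log2 fold change of -0.72 (SE 0.09, limma adjusted p = 0.000539). The signal with the mimic was 60.8% of control, a fall of 1.64-fold (95% confidence interval 1.43 to 1.89). The 8 arrays lay in 2 rows of 1 slide, with 2 arrays per group in each row. Within row 1 the log2 fold change was -0.87 (limma adjusted p = 0.0295). Within row 2 it was -0.56 and did not pass (limma adjusted p = 0.0642), and with the row as a block it passed (limma adjusted p = 0.00129).

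Cdc25b, which starts the activation of CDK1 at the approach of mitosis, fell further. The probe (for NM_023117) read 2.49, 2.43, 2.57 and 2.86 in controls 1, 3, 6 and 8, and 1.26, 0.69, 0.73 and 0.55 in mimic samples 2, 4, 5 and 7. Mimic sample 2 stood above the other mimic arrays and control 8 above the other controls. The group means were 2.59 ± 0.19 and 0.81 ± 0.31 (SD, n = 4 each). The log2 fold change was -1.78 (SE 0.17, limma adjusted p = 0.000129), a fall of 3.44-fold (95% confidence interval 2.64 to 4.47). Within slide rows 1 and 2 it was -1.48 and -2.08.

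The largest measured fall of the group, except with normexp background correction, was that of Cdc25c, the phosphatase that CDK1 itself activates in a loop at mitotic entry. Its probe (for NM_009860) read 0.15, 0.00035, 0.20 and 0.08 in controls 1, 3, 6 and 8. In mimic samples 2, 4, 5 and 7 it read -2.67, -2.56, -2.08 and -2.49. The controls were close together, while mimic sample 5 stood above the other mimic arrays. The means were 0.11 ± 0.09 and -2.45 ± 0.26 (SD, n = 4), with a log2 fold change of -2.56 (SE 0.13, limma adjusted p = 1.28e-05). Taken at face value the fall was 5.88-fold (95% confidence interval 4.79 to 7.21), but only 2 of 4 mimic arrays (samples 2 and 5) were well above background, so its size is uncertain.

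The mimic readings of Cdc25c were dim. The processed intensity was 193 to 242 units in controls and 30.3 to 48.6 with the mimic. The scanner software's own error of the spot was 10.5% to 11.0% of the signal in controls and 21.1% to 31.2% with the mimic. With normexp background correction, an alternative treatment of dim signal, the log2 fold change was -1.15 (limma adjusted p = 4.86e-05). The direction and the call held there, but the size was less than that of Cdc25b and Pkmyt1 in the same setting.

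Wee1, the nuclear kinase that phosphorylates the inhibitory tyrosine, read 1.31, 1.03, 0.93 and 1.24 in controls 1, 3, 6 and 8 (probe for NM_009516). In mimic samples 2, 4, 5 and 7 the readings were -0.12, -0.44, -0.29 and -0.66. All mimic arrays were below the array's 75th percentile and all controls above it. The means were 1.13 ± 0.18 and -0.38 ± 0.23 (SD, n = 4), a log2 fold change of -1.51 (SE 0.14, limma adjusted p = 0.000112). The fall was 2.84-fold (95% confidence interval 2.29 to 3.53). With normexp the log2 fold change was -0.97 (limma adjusted p = 4.27e-05). Within slide rows 1 and 2 it was -1.45 and -1.56. Wee2, the related kinase of oocytes, had no reading above background and was not tested.

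Pkmyt1, the gene of the membrane-bound kinase Myt1, fell by 3.96-fold (95% confidence interval 3.17 to 4.94). Its probe (for NM_023058) read 3.61, 3.39, 3.34 and 3.74 in controls 1, 3, 6 and 8. The mimic samples 2, 4, 5 and 7 gave 1.84, 1.38, 1.60 and 1.32. The lowest control (3.34) lay well above the highest mimic array (1.84), with means of 3.52 ± 0.19 and 1.54 ± 0.23 (SD, n = 4). The log2 fold change was -1.98 (SE 0.14, limma adjusted p = 3.48e-05), and within slide rows 1 and 2 it was -1.89 and -2.08. Of the 5 genes this was the value that moved least over 21 other settings (-2.09 to -1.88).

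**Figure D1:**
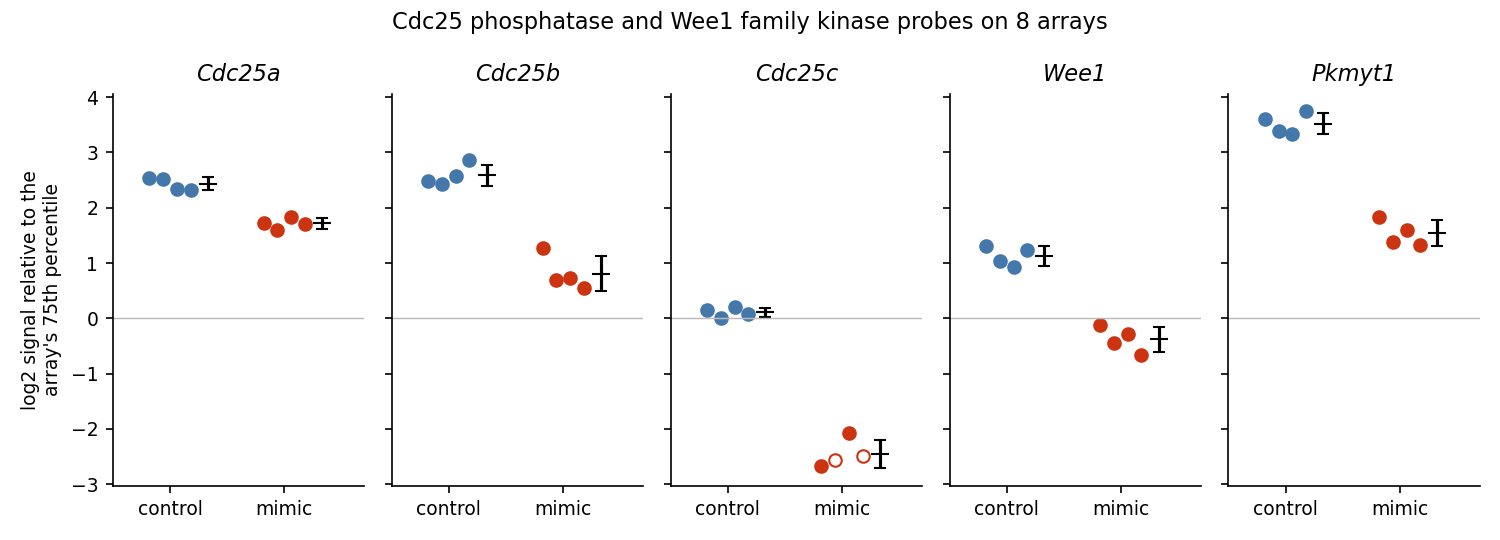
Log2 signal relative to each array's 75th percentile (vertical axis) for the 5 genes in 4 control arrays (blue) and 4 mimic arrays (red), with the mean and SD beside each group in black; open circles are readings not well above background. In each of the 5 panels all mimic readings lie below all control readings, with the smallest gap for Cdc25a (0.50) and the largest for Cdc25c (2.08), and levels are not compared between probes.

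Whether the 5 genes and Cdk1 changed by unequal amounts was examined in the difference between 2 genes on the same array, over 15 pairs. The smallest exact permutation p that 70 assignments of 4 and 4 arrays give is 0.0286 (two-sided), and 11 pairs reached it (adjusted p = 0.0390 over the 15 pairs). These calls did not all hold when 1 array was left out. Of the 15 pairs 0 passed after adjustment without mimic sample 2 or 4 or control 6 or 8 (lowest adjusted p = 0.0536 to 0.0612, exact permutation test), while 9 passed without any 1 of the other 4. The smallest exact permutation p was still 0.0286 in each case, but where 0 passed too few pairs reached it for the adjustment. The sign of the 11 shifts held in each of these cases. Cdc25a fell by less than each of the others. Its log2 difference to Cdc25b rose from -0.15 ± 0.30 in controls to 0.91 ± 0.32 with the mimic (SD, n = 4; exact permutation p = 0.0286). Its difference to Cdk1 moved from -0.07 ± 0.22 to 1.02 ± 0.15 (SD, n = 4; exact permutation p = 0.0286). The shifts against Wee1, Pkmyt1 and Cdc25c were 0.79, 1.27 and 1.84 (adjusted p = 0.0390 each, exact permutation test). With normexp these 5 shifts kept their sign at 0.29 to 1.20 and none passed after adjustment (adjusted p = 0.0612 to 0.0857, exact permutation test). In all 21 other settings Cdc25a had the smallest fall of the members measured. Many of these settings could not change that order. The slide blocks, filters, probe rule and variance model leave the log2 fold change of a gene with 1 probe as it was. Median scaling, no scaling and the deposited values shift all genes of an array alike.

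The probes of the kinases did not fall equally either. Wee1 fell by 0.48 less than Pkmyt1 on the log2 scale, and the difference between these 2 probes was tight within each group, -2.39 ± 0.09 in controls and -1.91 ± 0.07 with the mimic (SD, n = 4; exact permutation p = 0.0286, adjusted p = 0.0390). With normexp the shift of Wee1 minus Pkmyt1 was 0.91. Each gene had 1 tested probe, and whether the probes respond alike was not tested. Wee1 also fell by 0.31 less than Cdk1 (adjusted p = 0.0390, exact permutation test). That call was lost with quantile normalization (shift 0.27, adjusted p = 0.0779). Cdc25c fell by more than Cdc25b, Pkmyt1, Cdk1 and Wee1, by 0.78, 0.57, 0.74 and 1.05 (adjusted p = 0.0390 each, exact permutation test). With normexp the first 3 of these reversed, to -0.38, 0.73 and 0.45 when written as Cdc25b minus Cdc25c, Cdc25c minus Pkmyt1 and Cdc25c minus Cdk1, and the shift against Wee1 was -0.18. None of the 15 pairs passed with normexp.

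The remaining 4 pairs did not pass. Cdc25b minus Cdk1 was 0.08 ± 0.39 in controls and 0.12 ± 0.20 with the mimic (SD, n = 4; exact permutation p = 0.83). Pkmyt1 minus Cdk1 shifted by -0.17 (exact permutation p = 0.286), from 1.01 ± 0.26 to 0.84 ± 0.07. Cdc25b minus Wee1 shifted by -0.27 and Cdc25b minus Pkmyt1 by 0.20 (exact permutation p = 0.114 each). With normexp Cdc25b minus Wee1 was -0.55 and Cdc25b minus Pkmyt1 0.35 (exact permutation p = 0.0286 each, adjusted p = 0.0612). The sign of Cdc25b minus Cdk1 turned without control 1 (-0.13) and without mimic sample 2 (-0.05). These values do not show that the genes of a pair changed alike.

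**Figure D2:**
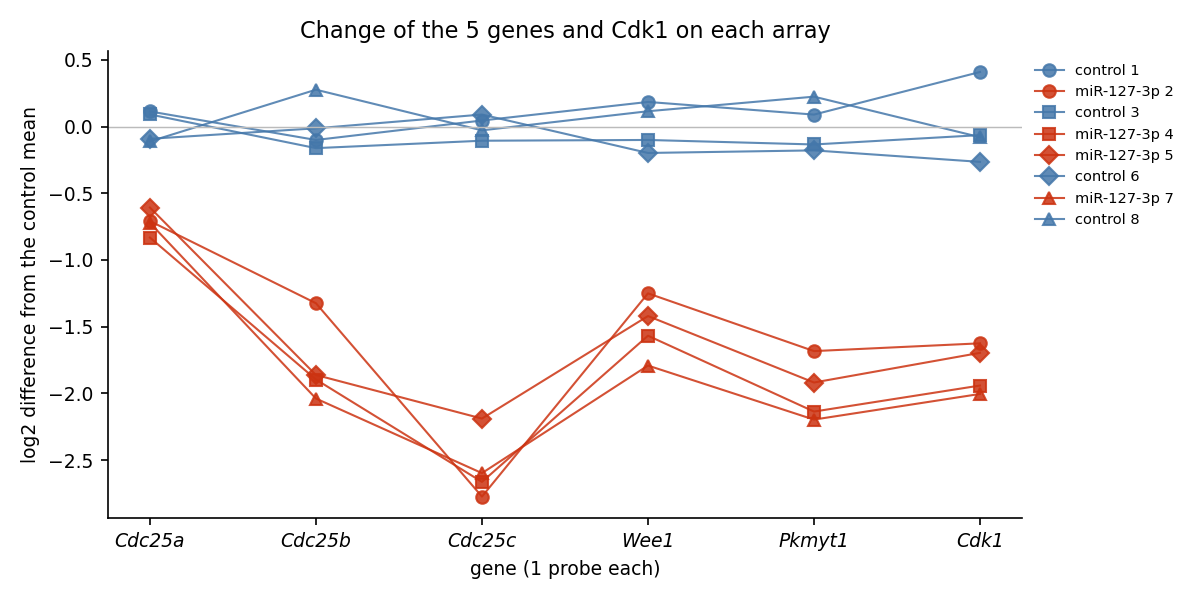
Log2 difference of each array from the control mean (vertical axis) for the 5 genes and Cdk1 (horizontal axis), with 1 line per array, blue for control and red for mimic. The mimic lines are nearest to 0 at Cdc25a (-0.83 to -0.61) and farthest at Cdc25c (-2.77 to -2.19), and the line of sample 2 crosses the others at Cdc25c.

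The partners and regulators of these enzymes were followed through lists of 75 genes, of which 66 were tested. Of these, 34 fell, 2 rose and 30 did not pass, beside 18.3% lower and 15.9% higher over all features. The CDKs and cyclins that form the substrate complexes fell in 6 of 6 tested cases, with a median log2 fold change of -1.95. The cyclin A2 gene Ccna2 had -2.37 (SE 0.12), the cyclin B genes Ccnb1 and Ccnb2 had -2.29 and -2.09 (SE 0.12 each), Cdk1 had -1.82 (SE 0.16) and Cdk2, the S phase kinase, had -0.59 (SE 0.14, limma adjusted p = 0.0129). The other 2 Cdk1 probes were below the filter on background and not tested. Ccna1, Ccnb3 and Ccne2 had no reading above background.

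Kinases that switch Cdc25 on or mark Wee1 for removal at mitotic entry fell in 5 of 8 tested cases and rose in 1 (median -0.83). The polo kinase gene Plk1 had a log2 fold change of -2.15 (SE 0.11), Aurka of -2.04 (SE 0.12), Melk, whose product binds Cdc25B, of -2.22 (SE 0.15), and Bora, the cofactor through which Aurora A activates Plk1, of -1.12 (SE 0.14). Within slide row 2 the count of falls was 3. The gene that rose was Plk3, a stress-responsive polo kinase, with 0.74 (SE 0.13, limma adjusted p = 0.00339), named after its value was seen. Its call was lost within slide row 1, and without control 1 the count of rises was 2.

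Upstream, 9 of 15 tested genes of the DNA damage and replication checkpoint fell and 0 rose (median -0.58). The fork protection genes Timeless and Tipin had log2 fold changes of -1.59 (SE 0.23) and -1.09 (SE 0.08). Topbp1 and Etaa1, both activators of the checkpoint kinase ATR, had -1.04 (SE 0.12) and -0.81 (SE 0.10). Within slide rows 1 and 2 alone, 3 and 5 of these genes passed. Chek1, whose kinase phosphorylates Cdc25A for destruction, was above background on 1 control and 2 mimic arrays and was not tested.

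Greatwall kinase and the phosphatase PP2A-B55, which dephosphorylates Cdc25 and Wee1, gave a single large change. Mastl, the gene of Greatwall, had a log2 fold change of -1.89 (SE 0.23, limma adjusted p = 0.000465). The regulatory subunit gene Ppp2r2d had -0.33 (SE 0.07, limma adjusted p = 0.00991), and the other 7 of 9 did not pass, among them Ensa (0.20) and the catalytic subunit gene Ppp2ca (-0.18). The list's median was -0.03. The call of Mastl held in all 21 other settings. That of Ppp2r2d was lost with the slide column as a block, within each slide row, with no filter on background and with no scaling.

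Genes of protein turnover of Cdc25 and Wee1 fell in 5 of 10 tested cases and rose in 0 (median -0.22). Cdca3, which takes part in the destruction of Wee1, had a log2 fold change of -2.44 (SE 0.19, limma adjusted p = 5.68e-05), and Fzr1, the activator of the ligase that removes Cdc25A after mitosis, had -0.87 (SE 0.08, limma adjusted p = 9.06e-05). Changes of Usp7 (-0.39) and Cul1 (-0.22) were smaller. The calls of Cdca3 and Fzr1 held in all 21 other settings. The count of falls was 2 with the slide column as a block, within each slide row, with no filter on background and with no scaling. It was 3 with median scaling and without any 1 of controls 1, 3, 6 or 8 or mimic samples 2 or 7.

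The 14-3-3 genes, whose proteins hold phosphorylated Cdc25 away from its target, changed little (median -0.04). Of 7 tested, 2 fell, Ywhaq with -0.34 (SE 0.08, limma adjusted p = 0.0138) and Ywhah with -0.37 (SE 0.12, limma adjusted p = 0.0443). The count was 0 within slide row 2 and with no filter on background. It was 1 with median scaling, with no scaling, with the slide row or column as a block, within slide row 1 and without any 1 of controls 1, 3 or 6 or mimic samples 2, 4 or 7. Ywhae (-0.16) and Ywhaz (0.06) did not pass.

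Of the CDK-activating kinase, which places the phosphate that CDKs need for activity, Mnat1 rose by 0.28 (SE 0.08, limma adjusted p = 0.0302), while Ccnh (0.15) and Cdk7 (-0.07) did not pass. The call of Mnat1 was lost with median scaling, with no scaling, with no filter on background, within each slide row, with the slide column as a block and without any 1 of controls 1, 6 or 8 or mimic samples 2 or 4. Among other phosphatases that act on CDK regulators, Ppp1cb had -0.36 (SE 0.10, limma adjusted p = 0.0248), and Cdc14b (-0.21), Ppp1ca (-0.15) and Ppp1cc (-0.08) did not pass. The call of Ppp1cb was lost with no scaling, with no filter on background, within each slide row, with the slide column as a block and without any 1 of controls 1 or 8 or mimic samples 2, 4 or 7. All 4 proliferation markers fell, Mki67 with -2.03 (SE 0.12), Top2a with -1.95 (SE 0.11), Pcna with -1.15 (SE 0.11) and Mcm2 with -1.12 (SE 0.15).

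**Figure D3:**
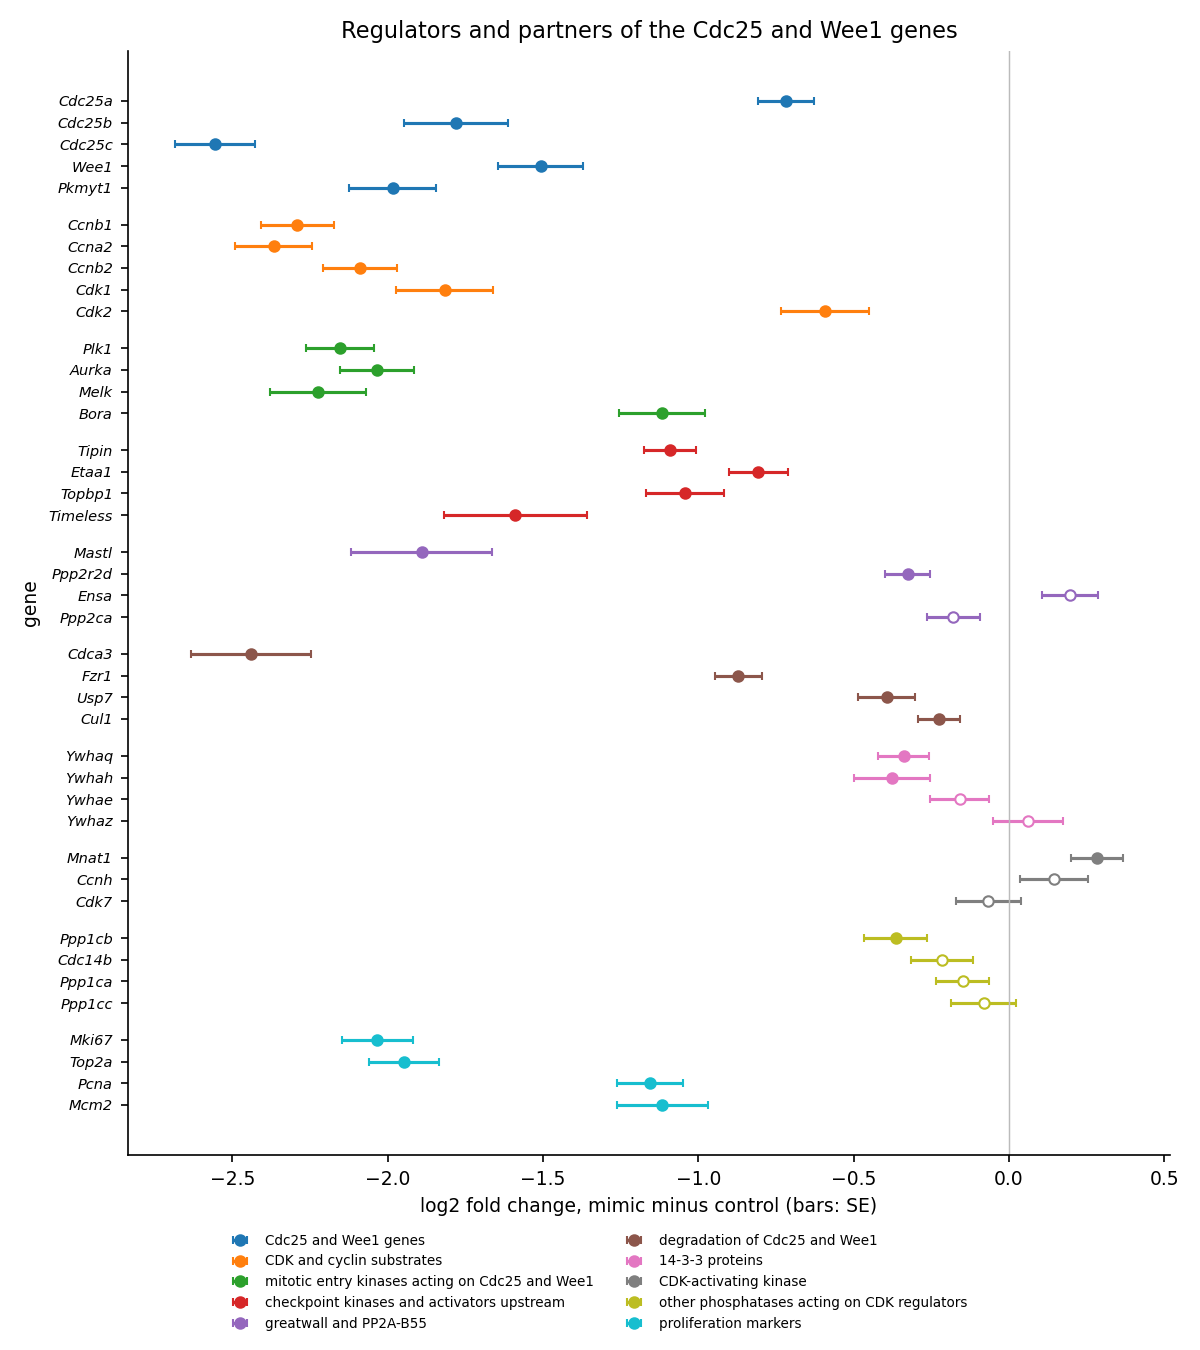
Log2 fold change, mimic minus control, with its SE (horizontal axis), for the 5 genes and for named genes of 9 lists (vertical axis, coloured by list); filled points have a limma adjusted p under 0.05 and open points do not. The 5 genes lie between -2.56 and -0.72, a range that also holds the substrate cyclins, Plk1, Mastl and Cdca3. The 14-3-3, CDK-activating kinase and protein phosphatase genes lie between -0.37 and 0.28, with some points filled.

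The genes with the most similar pattern over the 8 arrays were named by Pearson's r of the log2 signal, as a description without a test. Each r was taken across both groups and so includes the difference between them. For Cdc25a they were Eif4e (r = 0.995), Psmd4 (0.994) and Pkn3 (0.993), which fell by 0.52, 0.80 and 0.83 on the log2 scale. For Cdc25b they were Fignl1 (r = 0.999), Ankle1 and Cdc45 (0.998 each). Dazap2, Parp1 and Pank4 (r = 0.998, 0.997 and 0.997) were nearest to Cdc25c. Nearest to Wee1 were Haus4 (r = 0.999), Fanca and Zmiz2 (0.998 each), and nearest to Pkmyt1 were Fanca (r = 0.999), Impa2 and Sgo1 (0.998 each). Fanca, with a log2 fold change of -2.01, was thus among the nearest for both kinases.

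**Figure D4:**
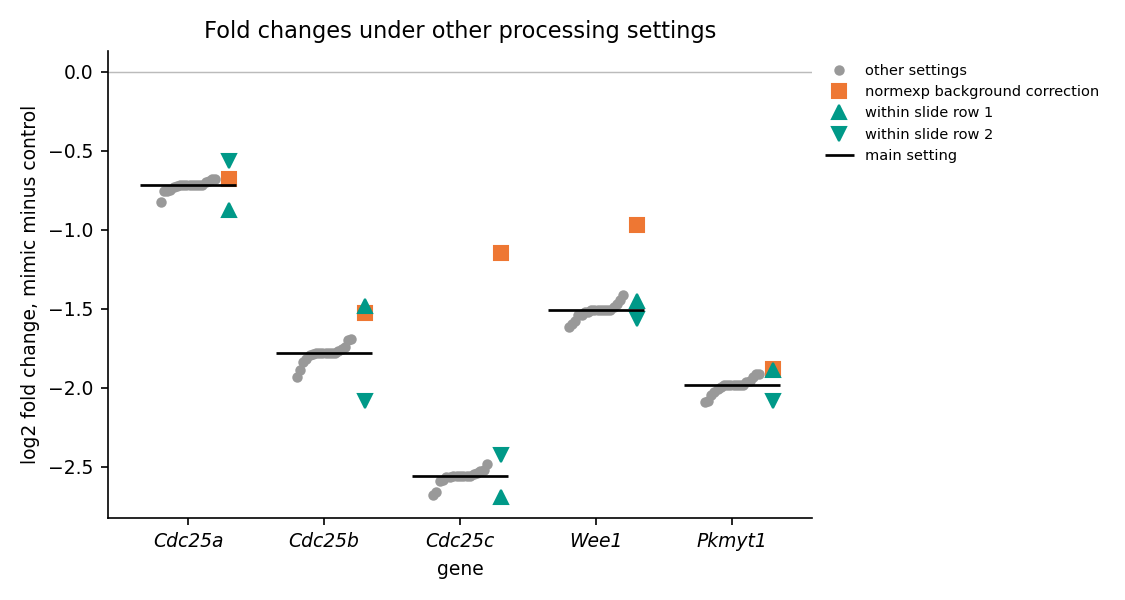
Log2 fold change, mimic minus control (vertical axis), of the 5 genes under the main setting (black line), with normexp (orange square), within slide row 1 or 2 (green triangles) and under the other settings (grey points). All values lie below 0, and normexp moves Cdc25c to -1.15 and Wee1 to -0.97.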

How the data were processed

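Messenger RNA of 8 samples was read on 1-colour (Cy3) Agilent arrays, all on 1 slide. The deposited scanner files hold spot intensity from Feature Extraction 11.5.1.1 (Agilent), per the file headers background-subtracted and detrended within each array. The deposited value table holds log2 values and differs from the log2 of the processed intensity by a single offset on each array, near that array's 75th percentile (offset SD at most 2.78e-07). The series text names GeneSpring 14.9.1.

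Of 62976 spots, 3671 controls and outlier-flagged spots were dropped, spots were averaged per probe (55681 probes), and each array's 75th percentile was subtracted. Accessions were named through RefSeq (GRCm38.p6; 28331 probes matched). Probes well above background on at least 4 of 8 arrays were tested, 1 per gene (highest mean), with limma 3.58.1 in R 4.3.3, Benjamini-Hochberg over 17093 features, threshold 0.05. A fit over all 21964 probes left the members' calls as they were. Pairs of genes were compared by exact permutation. The number of arrays limits precision. Code was tested on simulated data. Named were the members, up to 4 list genes with the smallest p (all of lists of at most 6, and Cdk1, Cdk2, Ccnb1, Chek1 and Plk1), and the 3 genes most like each member. The members and lists were chosen with earlier results of these data known. Alternatives covered background correction, scaling, filter, probe rule, slide position, variance model and each sample left out. Normexp used median spot signals, since the scanner files used here hold no mean signal column.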

Additional observations from a re-analysis of the deposited data

Results flagged for a closer look

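A sample far from the other 3 of its group was looked for among the 5 members and the named pathway genes, 41 genes and 82 groups of 4. No member had one. The gap of the outlying sample to its neighbour, as a share of the group's range, passed Dixon's 95% critical value in 5 groups, and chance gives about 1 in 20. Timeless was highest in mimic sample 2 (share 0.930; 1.43 against 0.66 in the next array), as was Melk (share 0.851; 0.23 against -0.23). In control 6, Usp7 was lowest (share 0.838; 3.61 against 3.76) and so was Ppp1cb (share 0.856; 3.83 against 4.05). Top2a was lowest in control 3 (share 0.922; 3.20 against 3.44).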

How the results depend on the processing

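The 5 members fell in all 21 other settings that measured them (20 for Cdc25c, which the filter for all 8 arrays removed), and 1 call was lost, that of Cdc25a within slide row 2 (-0.56, limma adjusted p = 0.0642). The slide blocks, filters, probe rule and variance model leave the members' log2 fold changes as they were and could alter only their calls. Leaving out 1 sample at a time gave log2 fold changes of -0.75 to -0.68 for Cdc25a, -1.93 to -1.69 for Cdc25b, -2.68 to -2.48 for Cdc25c, -1.59 to -1.41 for Wee1 and -2.08 to -1.91 for Pkmyt1. The count of all genes that differed (5851) was 3657 with no filter on background, 1759 and 1611 within slide rows 1 and 2 (fewer samples), and 3805 with no scaling between arrays, a setting added after the data were seen. With normexp no pair of genes passed, since too few pairs reached the smallest exact p for the adjustment over 15. Cdc25a minus Cdc25b, Cdk1 and Pkmyt1 were then 0.85, 0.92 and 1.20, and Wee1 minus Cdk1 and Pkmyt1 0.63 and 0.91, and Cdc25b minus Wee1 and Pkmyt1 -0.55 and 0.35 (exact permutation p = 0.0286 each). Cdc25a minus Cdc25c and Wee1 were 0.47 and 0.29, and Cdc25c minus Wee1 was -0.18. Cdc25b minus Cdc25c (-0.38), Cdc25c minus Cdk1 (0.45) and Cdc25c minus Pkmyt1 (0.73) reversed. With quantile normalization Wee1 minus Cdk1 was 0.27. Without 1 sample at a time, no pair passed without mimic sample 2 or 4 or control 6 or 8, again since too few pairs reached the smallest exact p. In each other case 9 of 15 passed. Over the 8 cases the shifts of Cdc25a were 0.93 to 1.21 against Cdc25b, 1.76 to 1.92 against Cdc25c, 1.00 to 1.16 against Cdk1, 1.15 to 1.36 against Pkmyt1 and 0.70 to 0.87 against Wee1. Cdc25b minus Cdc25c was 0.55 to 0.93, and Cdc25b minus Cdk1, which did not pass in any case, was -0.13 to 0.15, with its sign turned in 2 of 8 cases. Cdc25c minus Cdk1 was -0.86 to -0.60, minus Pkmyt1 -0.67 to -0.40 and minus Wee1 -1.14 to -0.89. Wee1 minus Cdk1 was 0.23 to 0.37 and minus Pkmyt1 0.44 to 0.51. The labels give the groups no shared sample numbers. Each slide column holds 1 array of each group, and with the column as a block 4008 genes differed and all 5 members passed (limma adjusted p = 0.00108 to 0.00634). Of the pathway list counts under other settings, 322 stayed within 1.5 times of the main count and 56 did not. The 322 include counts that were 0 in both settings, so they overstate how steady the other counts were. The cause of the moves was not tested. Dim signal limits the size of the change of Cdc25c.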

Other observations

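Within the groups, the measured signals of the 5 genes did not vary as 1 set. After each group's mean was removed, Wee1 and Pkmyt1 varied together over the 8 arrays (r = 0.93), and Cdc25b varied with Pkmyt1 (r = 0.85) and Wee1 (r = 0.69). Cdc25c was not close to Wee1 (r = -0.03), Pkmyt1 (r = -0.08) or Cdc25b (r = -0.34), and Cdc25a had r between -0.28 and 0.34 with the other 4. Mimic sample 2 was the highest mimic array for Cdc25b, Wee1 and Pkmyt1 and, after scaling, the lowest for Cdc25c, where its unscaled signal was 35.7 intensity units. With the mimic the spot error was 21.1% to 31.2% of the signal for Cdc25c, against 10.0% to 12.8% for the other 4. Only 2 of the Cdc25c mimic readings were well above background. The part of spot error in the low r of Cdc25c and Cdc25a was not tested. These are descriptions over 8 arrays that share scaling and slide, without a test.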
